A study of Mus musculus with 20 samples.

Results

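RNA was sequenced from mouse CD8+ T cells after a day with 100 nM of 21h10 and from such cells without cytokine. 21h10 is a computationally designed protein that mimics interleukin-21 (IL-21). The comparison takes the libraries whose titles name 21h10 at 100 nM and the unstimulated cells of experiment 2, which are 4 of the 20 libraries of the series, with 2 libraries in each group. All cells were wild-type CD8+ T cells of C57BL/6J mice aged 6 to 8 weeks, taken from the spleen by negative selection. Cells of both groups had been activated with plate-bound anti-CD3 and soluble anti-CD28 and rested overnight, so the unstimulated cells are activated T cells without added cytokine and not naive cells. One group then received 21h10 at 100 nM for 24 h and the other received none. The titles give 24 h for the libraries with cytokine and no time for the unstimulated ones. A difference in culture time, if there was one, cannot be told apart from the effect of the cytokine. Experiment 2 also held murine IL-21 (mIL-21) at 10 nM and at 100 nM and 21h10 at 10 nM, again with 2 libraries each, and all 10 libraries entered 1 fit, so that the 5 groups shared an estimate of the spread. The titles call the libraries of a group duplicates and do not say whether these came from separate cultures or mice, so p-values measure the spread between these libraries, which may be technical.

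IL-21 is a cytokine of activated CD4+ T cells. It binds the IL-21 receptor (Il21r) paired with the common cytokine receptor gamma chain (Il2rg), whose associated kinases JAK1 and JAK3 phosphorylate STAT3 and, less strongly, STAT5. The STAT proteins enter the nucleus and bind DNA at short palindromes, and among their targets are the SOCS genes, whose products damp the same pathway. In CD8+ T cells IL-21 is known for promoting granzymes and perforin, the proteins with which these cells kill their targets.

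Reads on genes came to between 27072917 and 39500340 in the 4 libraries compared, out of between 40919851 and 48829868 mapped reads. Genes held 80.9% and 76.6% of the mapped reads in the unstimulated libraries and 69.8% and 66.2% with 21h10, and the part of this difference in the results was not tested beyond the change of library size given next. On the first principal component, which held 56.2% of the variance, the unstimulated libraries stood at -90.8 and -78.9 and the 8 libraries with cytokine between 13.2 and 30.3. The libraries with 100 nM 21h10 stood apart from the others on the second component (15.8% of the variance), at -27.5 and -46.6, and their duplicates differed most, with a root mean square log2 difference of 0.513 against 0.403 to 0.460 in the other 4 groups. Levels are given as counts scaled to a common library size (CPM) after TMM normalization, which sets the library sizes so that most genes do not change. The labelled cell type held in the data, since Cd8a, the alpha chain of the CD8 coreceptor, had a CPM of 514 and 493 in unstimulated cells and of 488 and 495 with 21h10 (a log2 difference that passed, at -0.34, with mapped reads as library sizes and, at -0.33, with limma), whereas Cd4 did not exceed 2.94 in these libraries.

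Of 13772 genes tested, 6992 (50.8%) passed the threshold between 21h10 at 100 nM and unstimulated cells, a p under 0.05 in the quasi-likelihood test of edgeR after adjustment by the method of Benjamini and Hochberg, called the edgeR test from here on. Of these, 3439 genes (25% of those tested) were higher with 21h10 and 3553 (25.8%) were lower. The counts of the gene lists against unstimulated cells below are to be read against these shares. The libraries of the groups did not overlap for 6985 of the 6992 genes, but this held for 10123 of all 13772 genes tested. With 2 libraries a group, a lack of overlap was therefore common, also among genes that did not pass. Where it is named below for a gene that passed, it is a description and adds no support. Many of the differences were small, with a median size of 0.655 on the log2 scale, and 1340 genes rose and 890 fell by at least 1 on that scale. The split depends on the scaling. With the authors' mapped reads as library sizes the median log2 difference over all genes tested moved from -0.017 to -0.318, and 1895 genes were higher and 6245 lower. A rise below about 0.3 on the log2 scale can therefore become a fall with mapped reads as library sizes, while the same shift makes falls larger.

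**Figure D1:**
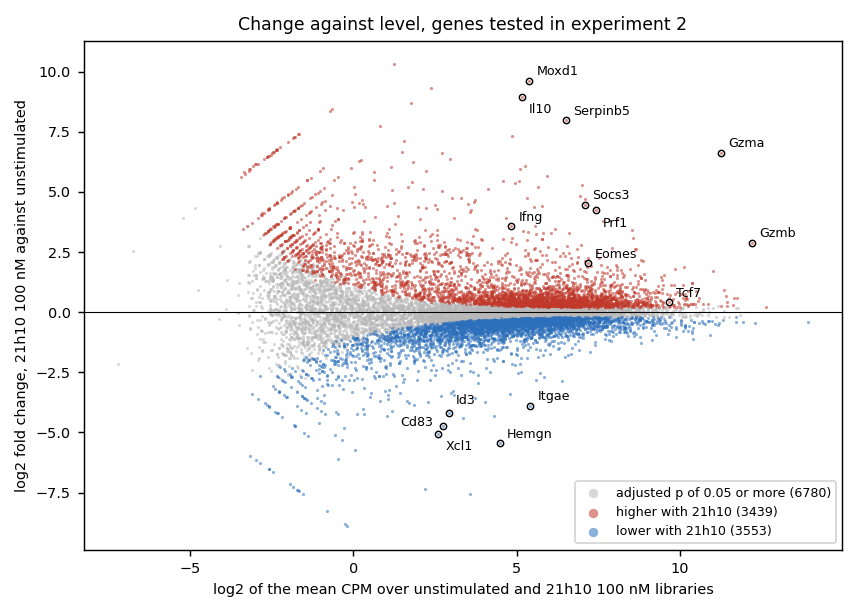
Log2 fold change of 21h10 100 nM against unstimulated cells (y axis) against the log2 of the mean CPM over the 4 libraries (x axis), 1 point per gene tested, red for the 3439 genes that were higher, blue for the 3553 that were lower and grey for the rest. The granzyme genes Gzma and Gzmb stand at the right edge above 0, so they joined a high level to a large rise, whereas Xcl1, Cd83, Hemgn and Id3 lie at the bottom at low mean levels.

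The DNA motif TTCNNNGAA, which reads the same on both strands, is the core of the sites that STAT3 and STAT5 bind. It was searched in the 250 bases before the start of transcription of the gene for the feedback inhibitor Socs3 and of the 10 genes with the largest rises, of which 5 had such a window in RefSeq's table for GRCm38.p6. Of those 5, 1 held the motif, Moxd1, and so did Socs3. Both windows are shown because they held the motif. They are written 5′ to 3′ on the strand of the gene, in lower case with the motif in capitals. The Socs3 window lies at chr11:117969367-117969616 on the minus strand with its motif 154 bases before the start that this table gives, which lies inside the span of the gene printed below, and the Moxd1 window at chr10:24223267-24223516 on the plus strand with its motif 150 bases before the start.
Socs3: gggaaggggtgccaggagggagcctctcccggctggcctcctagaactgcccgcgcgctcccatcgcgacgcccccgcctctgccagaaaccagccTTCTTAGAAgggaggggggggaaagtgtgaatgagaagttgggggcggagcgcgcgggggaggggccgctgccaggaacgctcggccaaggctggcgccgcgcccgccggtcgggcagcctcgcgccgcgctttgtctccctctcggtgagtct
Moxd1: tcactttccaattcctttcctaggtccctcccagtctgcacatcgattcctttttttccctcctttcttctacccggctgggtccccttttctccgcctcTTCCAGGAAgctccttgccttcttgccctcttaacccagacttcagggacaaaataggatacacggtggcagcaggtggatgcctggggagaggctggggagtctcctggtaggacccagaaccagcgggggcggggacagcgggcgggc
The motif occurred in 2197 of 27025 windows of this length (8.13%), and its stricter form TTCCNGGAA, which is a subset of it and is the form present in Moxd1, in 295 of them (1.09%). A match in these letters is a description and not a measured binding site.

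The feedback genes of cytokine signalling rose more than most genes. Of 14 tested genes of the SOCS family, other STAT feedback genes and the Pim kinases, 9 rose and 2 fell, against 25% and 25.8% of all genes, with a median log2 fold change of 1.14 (0.84 with mapped reads as library sizes). Socs3, the gene at chr11:117966079-117970336 that inhibits STAT3 signalling, had a CPM of 11.9 and 11.8 in unstimulated cells and of 262 and 261 with 21h10. Its groups were far apart and its duplicates nearly equal, which gave a 22.1-fold rise (log2 fold change of 4.46 ± 0.0878 SE, edgeR test, adjusted p = 2.98e-15). Cish, a feedback gene best known downstream of STAT5, rose from 20.7 and 16.2 CPM to 70.0 and 62.0, and Socs2 rose from 11.5 and 12.9 to 31.9 and 29.1. Both were clear of their unstimulated libraries, at 3.57-fold and 2.51-fold. Not every SOCS gene rose. The 2 falls of the list were those of Socs5 and Socs7, and Socs4 and Socs6 did not pass. The 19.1 and 11.6 CPM of Socs1 in unstimulated cells overlapped with 18.7 and 17.7 with 21h10. Its log2 difference of 0.24 did not pass either (edgeR test, adjusted p = 0.29). This gene depended on 1 library, because without the first unstimulated library the difference was 0.65 and passed (adjusted p = 0.00431).

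The kinase genes Pim1 and Pim2, which support survival and growth and are targets of STAT factors, rose as well. Pim1 went from 69.5 and 62.2 CPM to 421 and 407, a 6.28-fold rise, and Pim2 from 192.2 and 167 to 412 and 373, a 2.19-fold rise. Pim3 was far lower, between 6.93 and 15.1 CPM, and rose 1.78-fold. The rises of the NF-κB cofactor gene Bcl3 and the repressor gene Bcl6 were larger than that of Pim2, at 6.72-fold (from 26.1 and 22.4 to 166 and 160 CPM) and 4.05-fold (from 7.29 and 7.31 to 28.6 and 30.6 CPM). In all 5 of these genes the groups did not overlap, as was so for 10123 of all 13772 genes tested. An antisense gene, Gm26885, covers 14.5% of the exonic bases of Pim1, and reads from the pair cannot be told apart without knowing the strand.

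Among the receptor and signalling genes the receptor itself rose. Of 23 tested genes of this list 14 rose and 5 fell, with a median log2 fold change of 0.30, which became -0.0011 with 9 higher and 6 lower when mapped reads set the library sizes. Il21r, at chr7:125603252-125634397, went from 126 and 118 CPM to 438 and 391, a 3.40-fold rise (log2 fold change of 1.77 ± 0.0827 SE, edgeR test, adjusted p = 8.15e-11). The gamma chain gene Il2rg went from 486 and 461 to 729 and 754 CPM, a 1.57-fold rise, although a same-strand gene, Gm20489, covers 30.5% of its exonic bases. Per length of transcript, the level of Il2rg stayed above that of Il21r, at 310 against 107.1 in RPKM (reads scaled by transcript length and mapped reads) with 21h10.

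Several receptors for other cytokines rose more than Il2rg. Il2ra, the alpha chain that gives high affinity for IL-2, had a CPM of 466 and 489 in unstimulated cells and of 1747 in both libraries with 21h10. Its rise was 3.66-fold with no overlap. Il4ra rose 2.66-fold (264 and 222 CPM to 658 and 635) and the IL-18 receptor gene Il18r1 3.09-fold (99.9 and 115 CPM to 326 and 337). Il6ra was low in unstimulated cells, at 3.63 and 3.49 CPM, and reached 13.4 and 12.7. The receptor gene for the inhibitory cytokine IL-10 moved the other way, since Il10ra fell from 97.7 and 85.5 CPM to 36.8 and 33.9.

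Of the STAT genes, Stat5a rose 2.35-fold, from 91.9 and 78.9 CPM to 202.6 and 199.5. Stat3 was at 276 and 248 CPM without cytokine and at 320 and 326 with 21h10, and its log2 difference of 0.30 passed (edgeR test, adjusted p = 0.00729) but was -0.0011 with mapped reads as library sizes and did not pass without the second 21h10 library (0.29, adjusted p = 0.0594). The difference of Jak1, from 634 and 693 to 760 and 768 CPM, was smaller still at 0.20 (edgeR test, adjusted p = 0.0327), turned negative with mapped reads (-0.095), and missed the threshold without the first unstimulated library and without either 21h10 library (adjusted p between 0.131 and 0.159). Tyk2, a kinase that serves other cytokine receptors, fell 1.65-fold, from 100.6 and 76.5 CPM to 53.8 and 53.4.

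Most of the genes with which CD8+ T cells kill were higher with 21h10. Of 25 tested genes for granule proteins and killing, 16 rose and 5 fell, with a median log2 fold change of 0.70 (0.40 with mapped reads as library sizes, 13 higher and 5 lower). Gzma, which encodes the granule protease granzyme A and lies at chr13:113093824-113100981, had a CPM of 46.6 and 50.2 in unstimulated cells and of 4867 and 4768 with 21h10. This was a 99.5-fold rise, with duplicates much closer to each other than to the other group (log2 fold change of 6.64 ± 0.118 SE, edgeR test, adjusted p = 1.92e-15). Gzmb, the gene for granzyme B at chr14:56258836-56262334, began from a higher level, 1082 and 1152 CPM, and reached 8407 and 8156, a 7.41-fold rise.

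Gzmb and Gzma thereby came to stand among the most abundant messages. With 21h10 their RPKM of 3938 and 3694 was the highest of all genes tested after that of the elongation factor gene Eef1a1 (4979), whereas in unstimulated cells their RPKM was 654 and 45.7. Eef1a1 itself fell from 17805 and 17352 CPM to 13477 and 12981 and has near-identical copies that the authors' counting could split. The translation-linked gene Tpt1, another gene with such copies, rose from 2711 and 2738 CPM to 4249 and 4036.

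Prf1, the gene for the pore-forming protein perforin that lets granzymes into the target cell, lies at chr10:61297751-61304684. It had a CPM of 18.1 and 16.6 without cytokine and of 330 and 321 with 21h10, an 18.8-fold rise without overlap (log2 fold change of 4.23 ± 0.109 SE, edgeR test, adjusted p = 5.35e-14). Gzmk rose 6.42-fold but from 3.01 and 2.95 to only 18.9 and 19.4 CPM. The granule matrix gene Srgn (2.99-fold), the lysosomal membrane gene Lamp2 (3.27-fold), the cathepsin W gene Ctsw (2.85-fold), the granule transport gene Rab27a (2.38-fold) and the granule protein gene Nkg7 (2.16-fold) rose too. So did Serpinb9, whose product inhibits granzyme B inside the killer cell, by 1.82-fold, and the death ligand gene Tnfsf10 (TRAIL), by 1.98-fold.

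Not every killing gene followed. Gzmc, a granzyme gene in the same cluster as Gzmb, fell from 14.7 and 15.7 CPM to 10.6 and 7.32, and the adhesion receptor gene Crtam fell 2.79-fold, from 47.0 and 47.5 CPM to 16.8 and 17.1. The granule protease genes therefore moved in both directions at very different levels. Strong rises were those of the granzyme genes Gzma, Gzmb and Gzmk and of the perforin gene Prf1.

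**Figure D2:**
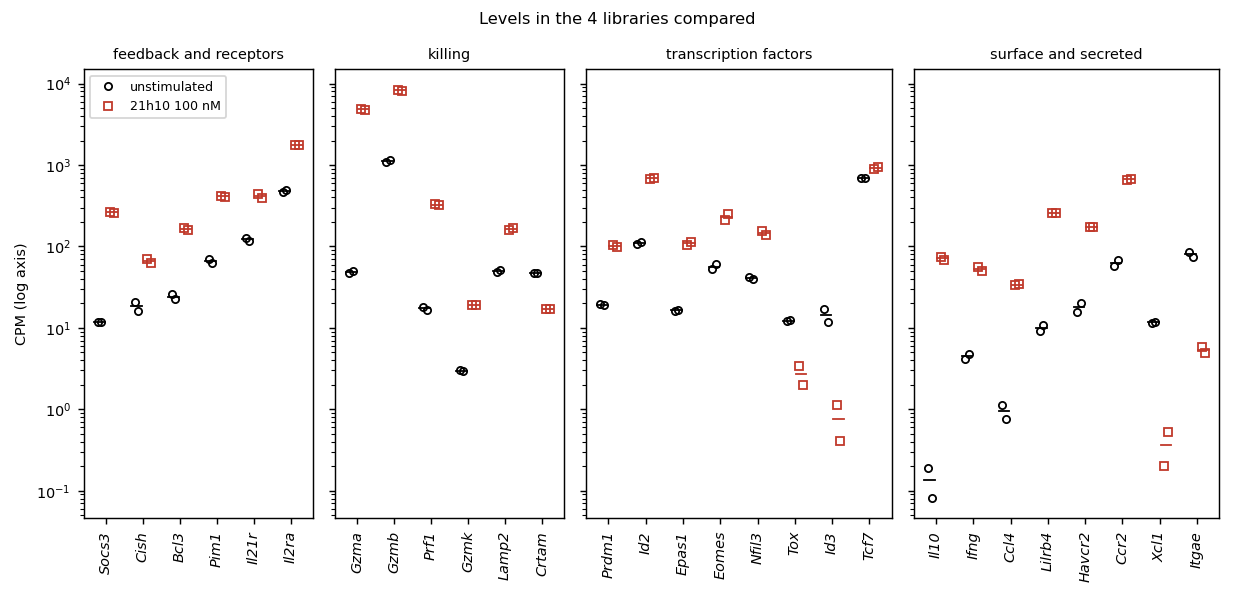
CPM on a log axis in each of the 4 libraries, black circles for the 2 unstimulated libraries and red squares for the 2 libraries with 21h10 at 100 nM, with a bar at the mean of each group. Duplicates nearly coincide for most genes, and the gap between the groups is widest for Il10, which went from under 0.2 to between 67.6 and 75.2 CPM, and for Gzma.

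The transcription factors of effector differentiation moved in groups. Of 21 tested, 13 rose and 5 fell, with a median log2 fold change of 0.43 (0.14 with mapped reads as library sizes, 10 higher and 5 lower). Prdm1, which encodes Blimp-1, a repressor that drives terminal effector differentiation, went from 19.5 and 19.2 CPM to 104 and 97.9. Its 5.21-fold rise left no overlap (log2 fold change of 2.38 ± 0.0972 SE, edgeR test, adjusted p = 1.34e-11). Id2, an inhibitor of E proteins that favours effector cells, rose 6.20-fold from 107 and 115 to 679 and 694 CPM, whereas Id3, its relative that marks memory precursors, fell from 16.9 and 11.8 to 1.13 and 0.409 CPM. The pair thus moved in opposite directions, by log2 fold changes of 2.63 and -4.19.

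Of the T-box factors, Eomes, at chr9:118478186-118486132, rose 4.09-fold, from 52.7 and 60.4 CPM to 214 and 248. Tbx21, which encodes T-bet, showed a much smaller difference, from 61.1 and 52.6 to 72.3 and 70.6 CPM. The log2 difference of Tbx21 was 0.33 (edgeR test, adjusted p = 0.00594), but it was 0.025 with mapped reads as library sizes (adjusted p = 0.846) and missed the threshold without the first 21h10 library (adjusted p = 0.0548). Epas1, which encodes the hypoxia-inducible factor HIF-2 alpha, rose 6.61-fold from 16.2 and 16.7 to 105 and 113 CPM, and Hif1a rose 2.21-fold. Nfil3 (3.49-fold) and Batf (2.30-fold), both basic leucine zipper factors of T cell differentiation, were higher as well. Maf, a factor linked to Il10 transcription, rose 6.28-fold but stayed low, from 1.01 and 1.96 to 10.0 and 8.48 CPM.

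Runx3, a factor of CD8 lineage identity, rose 1.5-fold and Bhlhe40 1.72-fold. The factors that fell included Tox, known for the exhausted T cell state, from 12.2 and 12.4 CPM to 3.41 and 1.97, a 4.52-fold fall with no overlap (edgeR test, adjusted p = 4.59e-06). Ikzf2 fell 3.0-fold, and the interferon regulatory factor genes Irf4, which follows T cell receptor strength, and Irf8 fell 1.95-fold and 1.51-fold.

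Genes of quiescence and memory did not fall as a group. Of 21 tested, 11 rose and 8 fell, with a median log2 fold change of 0.27, and with mapped reads as library sizes 6 were higher and 9 lower with a median of -0.03, so no direction can be given to the list. Rises included the chromatin organiser gene Satb1 (3.48-fold, from 401 and 428 to 1436 and 1450 CPM), the antiproliferative gene Btg1 (2.68-fold) and the IL-7 receptor gene Il7r (1.71-fold, from 264 and 314 to 491 and 499 CPM). Falls included Id3, the follicular homing receptor gene Cxcr5 (5.69-fold, from 22.9 and 19.9 to 3.28 and 4.28 CPM) and Myb (2.46-fold). Tcf7, which encodes TCF-1, a factor of resting and memory cells, was chosen after its values were seen. It had a CPM of 693 and 685 without cytokine and of 906 and 933 with 21h10, a log2 difference of 0.42 that passed the edgeR test (adjusted p = 0.00029) but not with mapped reads as library sizes (0.11, adjusted p = 0.257).

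Inhibitory receptors rose in the majority. Of 18 tested, 12 rose and 4 fell, with a median log2 fold change of 0.89 (0.59 with mapped reads as library sizes). Lilrb4, at chr10:51490898-51496613, had the largest rise among them, from 9.19 and 10.97 CPM to 260 and 261, or 25.9-fold without overlap (log2 fold change of 4.69 ± 0.0994 SE, edgeR test, adjusted p = 7.43e-15). A same-strand gene, Gm49339, covers 35.3% of its exonic bases and its relative Lilr4b matches 23.3% of the transcript, so its reads are uncertain. Havcr2, the gene for TIM-3, rose 9.70-fold from 15.8 and 20.2 to 174 and 174 CPM, and Entpd1, the gene for the ATP-degrading enzyme CD39, rose 5.96-fold from 11.1 and 10.9 to 64.5 and 66.3 CPM. Cd160, Cd200 and Ctla4 fell 2.17-fold, 2.15-fold and 1.70-fold. The list therefore did not move as 1 block.

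Costimulatory receptors and the TNF receptor family gave 9 of 19 higher and 9 lower, which became 5 and 9 with mapped reads as library sizes. The median log2 fold change of 0.13 became -0.18 with mapped reads and lay between -0.30 and 0.24 with 1 library left out. Tnfrsf8, the gene for CD30, rose 3.45-fold from 23.4 and 21.4 to 80.6 and 73.5 CPM, Icos rose 3.04-fold from 123 and 119 to 372 and 366, and the death receptor gene Fas rose 2.55-fold. The genes for the ligands RANKL (Tnfsf11, 5.30-fold) and LIGHT (Tnfsf14, 2.25-fold) and for Cd86 (3.46-fold) fell, all from between 6.98 and 10.5 CPM.

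Cytokine genes included some of the largest rises. Of 17 tested, 8 rose and 4 fell, and 7 of the 8 rises were of at least 1 on the log2 scale. Il10, at chr1:131019845-131024970, was nearly silent without cytokine, with 8 and 3 reads (0.192 and 0.0818 CPM), and reached 75.2 and 67.6 CPM with 21h10. Its fitted log2 fold change was 8.95 (edgeR test, adjusted p = 7.43e-15), with an unstimulated level that rests on these few reads. Ifng, the gene for interferon-gamma at chr10:118441046-118445894, rose 11.9-fold, from 4.19 and 4.75 to 56.4 and 49.3 CPM, although a same-strand gene, Gm49751, covers 25.9% of its exonic bases. Il24, a gene of the IL-10 family, rose from 0.0722 and 0.300 CPM to 17.4 and 13.2. The genes for the lymphotoxins Lta (6.09-fold, from 16.8 and 16.9 to 2.95 and 2.57 CPM) and Ltb (1.86-fold) and for Ebi3, a subunit of IL-27 and IL-35 (5.31-fold), fell. An antisense gene, Gm16712, covers 23.4% of the exonic bases of Ebi3.

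Chemokine genes also moved in both directions. Of 10 tested, 6 rose and 2 fell (4 and 2 with mapped reads as library sizes). Ccl4, whose product attracts T cells and monocytes, rose 35.1-fold, from 1.13 and 0.764 to 33.2 and 34.3 CPM, and its neighbours Ccl3 (6.86-fold, to 9.58 and 12.5 CPM) and Ccl9 (7.49-fold, to 17.7 and 21.4 CPM) rose too. Xcl1, which attracts cross-presenting dendritic cells, fell from 11.6 and 11.9 CPM to 0.199 and 0.521, a 33.1-fold fall with no overlap (edgeR test, adjusted p = 2.17e-08), with an antisense gene, Gm20743, over 18.7% of its exonic bases. Cxcl10, an interferon-induced chemokine gene, fell from 4.35 and 4.34 to 1.03 and 1.115 CPM.

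Receptors for chemokines and trafficking lipids moved in both directions. Of 19 tested, 9 rose and 6 fell, with a median log2 fold change of 0.27 (-0.03 with mapped reads as library sizes). Ccr2 rose 10.6-fold from 57.2 and 68.7 to 659 and 677 CPM and Cxcr6 rose 4.80-fold from 65.8 and 61.5 to 305 and 306. Cxcr3, the receptor for Cxcl10 and its relatives, fell 3.38-fold from 107 and 92.1 to 29.7 and 29.0 CPM, and Cxcr4 fell 2.28-fold. None of these 4 genes had overlapping groups, as was so for 10123 of all 13772 genes tested.

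Integrin and adhesion genes gave a mixed list, with 9 of 22 higher and 7 lower, which became 8 and 11 with mapped reads as library sizes. Itgae, the gene for the CD103 chain that holds T cells at epithelia, at chr11:73090505-73147449, fell from 85.7 and 74.7 CPM to 5.90 and 4.87, or 14.9-fold (log2 fold change of -3.89 ± 0.139 SE, edgeR test, adjusted p = 2.68e-12). The beta-1 integrin gene Itgb1 fell 2.42-fold and Itga4 1.62-fold. Rises were those of Itgam, from 3.15 and 3.08 to 42.6 and 53.0 CPM, Cdh1, the gene for E-cadherin (5.68-fold, to 12.8 and 11.1 CPM), and Itga2 (2.23-fold). A same-strand gene, Gm49368, covers 68.7% of the exonic bases of Itgam, whose reads may belong to either.

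Receptors shared with natural killer cells gave 7 of 21 higher and 4 lower, against 25% and 25.8% of all genes. These counts became 5 and 9 with mapped reads as library sizes. No direction can be given to the list, since its median log2 fold change of -0.17 became 0.23 without the first 21h10 library and also without the second unstimulated library. Cd7 rose 11.9-fold, from 7.89 and 6.71 to 91.1 and 83.2 CPM, and Klrb1f and Klra3 rose 9.16-fold and 2.49-fold. Klrd1 and Klrk1, the genes for CD94 and NKG2D, fell 1.79-fold and 1.73-fold, from between 268 and 335 to between 160 and 179 CPM.

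In the T cell receptor complex and its proximal signalling, 12 of 22 genes were higher and 3 lower, and none changed by 1 or more on the log2 scale. With mapped reads as library sizes the split was 7 and 9 and the median went from 0.28 to -0.02. The phosphatase gene Ptprc (CD45) went from 1616 and 2007 to 3376 and 3489 CPM, and Cd3e from 391.8 and 391.5 to 646 and 722. Cd5, a damper of receptor signalling, fell 1.34-fold.

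Immediate early factors also split. Of 22 tested AP-1, EGR and NR4A genes with their relatives, 9 were higher and 6 lower, and 6 and 9 with mapped reads as library sizes. Jun rose 5.03-fold (27.8 and 24.96 to 133.6 and 132 CPM), Egr1 3.09-fold and Nfkbiz, an atypical inhibitor of NF-κB that acts in the nucleus, 2.91-fold. The orphan receptor genes Nr4a3 (10.3-fold), Nr4a1 (2.15-fold) and Nr4a2 (2.14-fold), which follow T cell receptor signals, fell together, each from between 4.45 and 10.7 CPM.

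Of 16 tested genes of the type 17 program, which STAT3 drives in CD4+ T cells, 10 rose and none fell, with a median log2 fold change of 1.17. Il10, Il24 and the IL-1 receptor gene Il1r1 led them. Il1r1 had a CPM of 0.313 and 0.464 without cytokine and of 13.0 and 12.6 with 21h10, a 33.0-fold rise without overlap. The rise of Maf belongs to this account too, whereas 4 of the 20 genes listed did not have enough reads to be tested.

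Interferon-stimulated genes were lower more often than higher. Of 58 tested, 31 fell and 14 rose, with a median log2 fold change of -0.36 (-0.66 with mapped reads as library sizes, 36 lower and 7 higher). The falls were the larger changes, 14 of them by at least 1 on the log2 scale against 1 of the rises. Ifi44 fell from 5.20 and 6.41 CPM to 0.364 and 0.521, Mx2, a restriction factor gene, from 4.07 and 3.93 to 0.563 and 0.781, and Usp18, which removes the ISG15 protein tag, from 33.3 and 28.0 to 6.36 and 4.42. Ly6a (2.17-fold), Zbp1 (1.94-fold) and Gbp2 (1.81-fold) rose. Gbp2 went from 325 and 348 to 611 and 608 CPM.

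Genes of the major histocompatibility complex and of antigen processing fell in 16 of 30 cases and rose in 1, with a median log2 fold change of -0.44. The single rise was that of B2m, the light chain of class I molecules, from 1839 and 2406 to 3319 and 3388 CPM. The largest falls were of class II genes, which T cells of the mouse hardly express. H2-Aa had 2.17 and 1.96 CPM without cytokine and 0.0663 and 0 with 21h10, at least 19.6-fold lower against the floor of 3 reads per library that a count this small allows. H2-Eb1 went from 3.06 and 1.72 to 0.133 and 0.112 CPM, and Cd74, the class II chaperone gene, from 17.6 and 13.4 to 1.26 and 1.56, an 11-fold fall.

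Markers of B cells were lower in 4 of 6 cases. Their summed CPM went from between 11.4 and 13.8 to between 7.10 and 7.52, most of it Cd79b (10.2 and 7.64 to 6.63 and 5.65). Ms4a1 and Cd79a were at the floor in the libraries with 21h10. Pax5 moved the other way on few reads, from 0.12 and 0.0818 to 0.265 and 0.26 CPM, and did not pass. The 7 dendritic cell markers summed to between 28.1 and 42.7 CPM and then to between 25.2 and 25.6, most of it Batf3, and 2 of the 5 tested were lower. The 10 myeloid markers rose from between 9.17 and 9.602 to between 51.7 and 63.0 CPM, most of it Itgam, with Cd68 going from 4.52 and 5.24 to 8.75 and 10.0. Of the other defining myeloid markers, S100a8, S100a9 and Fcgr1 were at 0 in both groups, and Lyz2 and Mpeg1, between 0.109 and 1.203 CPM without cytokine, were at 0 with 21h10. Sums fell from between 3.87 and 4.02 to between 0.483 and 1.56 CPM for 9 erythroid and platelet markers (3 of 3 tested lower), from between 274 and 303 to between 170 and 176 for 6 NK cell markers, most of it Klrk1, and from between 304 and 333 to between 192.2 and 224 for 6 markers of CD4+ and regulatory T cells, most of it Ctla4. In the last of these lists Ctla4 and Cd4 were lower and the other 3 of the 5 tested members higher (1 with mapped reads as library sizes), with Foxp3 going from 0.193 and 0.164 to 1.62 and 2.05 CPM. The 7 genes of CD8 T cell identity summed to between 2887 and 3068 CPM and with 21h10 to between 3861 and 3867, with 4 higher and 1 lower (3 and 3 with mapped reads as library sizes). The part of other cells in the results was not tested. In these bulk samples fewer cells of a type and less RNA per cell cannot be told apart.

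Survival and death genes of the BCL2 family changed in both directions, with 5 of 16 higher and 7 lower (5 and 10 with mapped reads as library sizes). Bcl2, the founding survival gene, rose 2.93-fold from 153 and 161 to 476 and 444 CPM. It rose together with 2 genes of the pro-death BH3-only class, Pmaip1 (NOXA, 3.24-fold, from 22.1 and 25.2 to 79.5 and 74.0 CPM) and Bcl2l11 (BIM, 2.95-fold, from 48.9 and 44.9 to 141.01 and 135.97 CPM). The other BH3-only genes Bmf and Bbc3 (PUMA) fell 3.51-fold and 2.51-fold, and the survival gene Bcl2l2 fell 1.64-fold.

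Among 26 genes of Myc and G1 control, 10 were higher and 7 lower (8 and 9 with mapped reads as library sizes). Mxd1, a Max partner that opposes Myc, rose 6.17-fold from 32.0 and 31.6 to 207.9 and 185 CPM, whereas its relative Mxd4 fell 5.04-fold from 31.5 and 24.2 to 6.89 and 4.09. The G1 kinase gene Cdk6 rose 2.71-fold and the kinase inhibitor gene Cdkn2d 2.49-fold. Ccnd2, the gene for cyclin D2, fell 1.65-fold and Cdk2 1.56-fold.

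Replication and mitosis genes differed. Of 43 tested genes of DNA replication and S phase, 33 fell and 1 rose, with a median log2 fold change of -0.52 (-0.82 with mapped reads as library sizes, 40 lower and 1 higher), against 25.8% of all genes lower. The sizes were modest, since 2 of the 33 falls reached 1 on the log2 scale. These were Rfc4, a clamp loader gene, from 68.6 and 61.3 to 29.6 and 28.1 CPM, and Gins2, a helicase subunit gene, from 32.6 and 28.0 to 13.4 and 16.8 CPM. The polymerase gene Pold1 fell 1.99-fold, from 138.03 and 107.2 to 60.2 and 63.1 CPM. The exception was Tyms, the thymidylate synthase gene, which rose 2.03-fold with a wide spread, from 84.5 and 96.5 to 160 and 207.5 CPM. An antisense gene, Gse1, covers 67.3% of the exonic bases of Gins2. Of 45 mitosis genes, 9 were higher and 9 lower, against 25% and 25.8% of all genes, with a median of 0.03. Under mapped reads 2 were higher and 26 lower with a median of -0.27. Without the second 21h10 library 11 in place of 18 mitosis genes passed. Prc1 (1.59-fold) and Birc5 (1.49-fold) rose, and Espl1 (1.66-fold) and Cdc20 (1.58-fold) fell.

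Energy metabolism was lower in most of what moved. Of 30 genes of glycolysis and the hypoxia response, 13 fell and 3 rose (median -0.36), and of 76 genes of oxidative phosphorylation, 39 fell and 6 rose (median -0.31). With mapped reads as library sizes the splits were 21 and 1 and 63 and 1. Pdk1, which keeps pyruvate out of mitochondria, fell 1.98-fold from 320 and 332 to 175 and 154 CPM, and the hypoxia gene Ankrd37 2.75-fold. An antisense gene, Lrp2bp, covers 22.7% of the exonic bases of Ankrd37. The aldolase gene Aldoc rose 1.80-fold. The subunit genes Ndufa4 and Ndufc1 fell 2.03-fold and 2.07-fold, and Cycs, the cytochrome c gene, which has near-identical copies, rose 1.62-fold. Single falls were small, and 1 glycolysis gene and 2 oxidative genes fell by at least 1 on the log2 scale.

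Lipid synthesis moved the other way. Of 32 genes of cholesterol and fatty acid synthesis, 18 rose and 3 fell, with a median log2 fold change of 0.34 that became 0.04 under mapped reads, with 11 higher and 7 lower. Elovl6, a fatty acid elongase gene, rose 5.67-fold from 49.6 and 55.6 to 305 and 292 CPM. Acat2 rose 2.15-fold, though its relative Acat3 matches 65.6% of its transcript. The cholesterol exporter gene Abcg1 fell 1.87-fold.

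The protein synthesis genes split by function. Cytoplasmic ribosomal protein genes were lower in 45 of 75 cases and higher in 2, with a median log2 fold change of -0.35, and 69 of 75 were lower with mapped reads. Rps14 fell 2.23-fold (940 and 619 to 376 and 324 CPM), and Rps19 and Rps2, the latter with near-identical copies, fell 2.03-fold and 1.91-fold. The unstimulated duplicates of these 3 genes differed by more than most, and leaving out 1 library changed the number of ribosomal protein genes past the threshold to between 34 and 54. Of 44 ribosome biogenesis genes, 12 rose and 12 fell (1 and 27 with mapped reads, and 7 and 8 without the second 21h10 library), with Rrp1b 2.30-fold higher and Wdr12 and Polr1c 2.51-fold and 2.11-fold lower.

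Of 39 genes of the ATF4 response and the tRNA synthetases, 19 were higher and 9 lower with a median of 0.19, and 10 and 15 with a median of -0.12 under mapped reads. Cebpb rose 4.29-fold from 4.96 and 3.87 to 19.6 and 18.4 CPM, and Atf4 2.05-fold from 103 and 92.0 to 206.6 and 194 CPM. The serine synthesis gene Phgdh, which has a near-identical copy, fell 2.13-fold and Ddit4, an inhibitor of mTORC1, 1.88-fold. An antisense gene, Tmem189, covers 20.7% of the exonic bases of Cebpb. Of 27 chaperone genes of the endoplasmic reticulum, 16 rose and 2 fell with a median of 0.31 (7 and 6 with a median of 0.01 under mapped reads). The stress sensor gene Atf6 rose 4.10-fold from 44.3 and 46.4 to 182 and 190 CPM, and Hspa5, the gene for the chaperone BiP, 1.88-fold from 429 and 425 to 823 and 782 CPM. Derl3 fell from 3.13 and 2.21 to 0.431 and 0.0744 CPM.

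**Figure D3:**
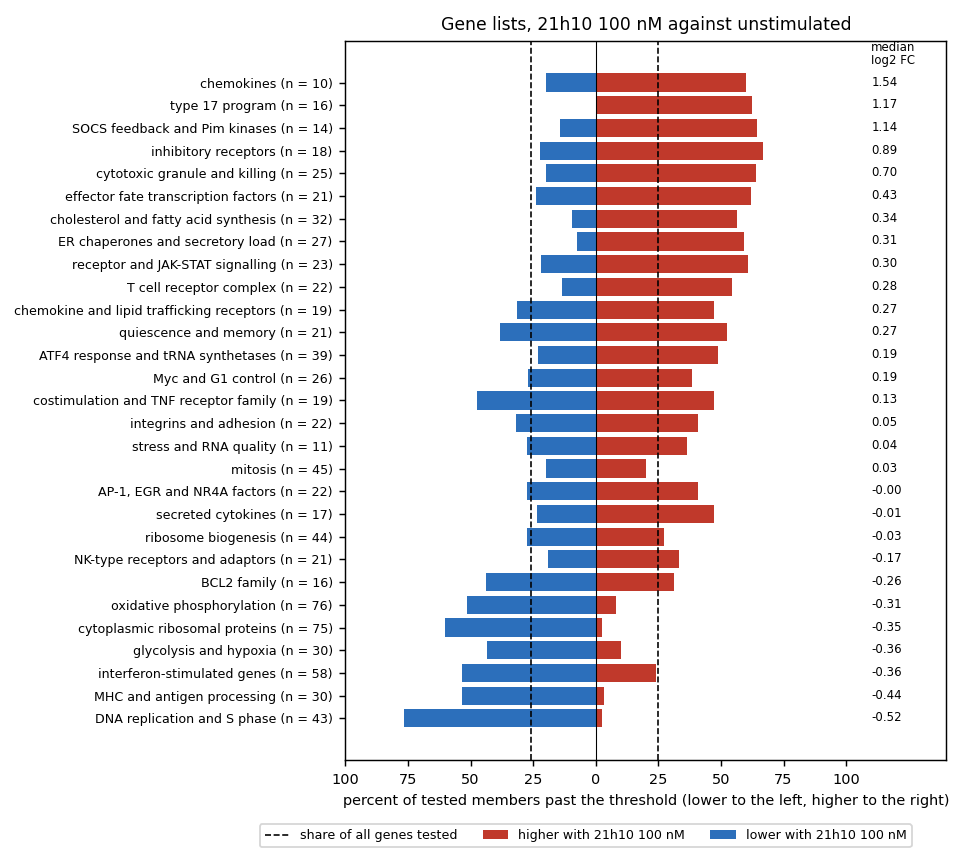
Percent of the tested members of each gene list that were higher (red, to the right) or lower (blue, to the left) with 21h10 at 100 nM than in unstimulated cells, with the number of tested members in brackets, the median log2 fold change at the right and dashed lines at the shares of all genes tested (25% and 25.8%). Replication genes were lower in 33 of 43 cases and genes of the type 17 program were higher in 10 of 16, and with mapped reads as library sizes the medians of the lists from receptor and JAK-STAT signalling (0.30) down to mitosis (0.03) were all below 0.

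The largest rises over all genes included few with a known part in T cell killing. By the rule of the 10 largest rises among genes past the threshold with no overlap and a mean RPKM of at least 1, they were Pigz, Moxd1, Il10, Afap1l1, Serpinb5, Ret, Slc9a2, Gzma, Hlx and Il24. Moxd1, the gene of a copper-dependent monooxygenase-like protein at chr10:24223517-24302783, had 6 and 2 reads without cytokine (0.144 and 0.0546 CPM) and 85.6 and 81.4 CPM with 21h10. Its fitted log2 fold change was 9.62 (edgeR test, adjusted p = 2.98e-15), again with an unstimulated level that rests on few reads. Serpinb5, the gene for maspin, at chr1:106861175-106883348, had the highest level of them per length after Gzma, an RPKM of 47.1, and went from 0.553 and 0.873 CPM to 178 and 181, a 254-fold rise.

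Another 3 stood at the floor of detection without cytokine, so their folds are lower bounds. Pigz, a gene of glycolipid anchor synthesis, had no reads in unstimulated cells and 4.84 and 4.61 CPM with 21h10, at least 61.3-fold higher. Afap1l1 reached 6.53 and 7.03 CPM, at least 88.0-fold higher, and the sodium-proton exchanger gene Slc9a2 5.83 and 5.95 CPM, at least 76.5-fold higher. Ret, the gene of a receptor tyrosine kinase of neurons, rose from 0.505 and 0.191 to 56.4 and 58.8 CPM, and the homeobox gene Hlx from 0.0962 and 0.164 to 12.2 and 13.6.

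The largest falls were those of Utf1, Capn3, Mir1903, H2-Aa, Hemgn, Xcl1, Cd83, Gucy1a3, Cpd and Serpinc1. Hemgn, a nuclear protein gene known from blood cell precursors, at chr4:46393989-46404183, fell from 40.8 and 46.4 CPM to 1.19 and 0.781, or 43.6-fold (log2 fold change of -5.45 ± 0.198 SE, edgeR test, adjusted p = 3.20e-12). The calpain protease gene Capn3 fell from 25 and 22.6 CPM to 0.133 and 0.112, and Cpd, a carboxypeptidase gene, from 35.2 and 40.5 to 1.39 and 2.38. Cd83, a surface protein gene of activated lymphocytes, fell 26.3-fold from 12.3 and 13.8 CPM, and Gucy1a3, a guanylate cyclase subunit gene, 20.8-fold from 17.5 and 21.2 CPM. Utf1, Mir1903, H2-Aa and Serpinc1 had at most 4.36 CPM to begin with. Utf1 was at least 16.8-fold lower, with no reads with 21h10, and Mir1903, which lies inside an exon of Nrp1 and cannot be told apart from it, at least 3.43-fold lower. Serpinc1 fell 19.7-fold, with the antisense gene Zbtb37 over 34.4% of its exonic bases.

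The 100 nM dose of 21h10 was next compared with its 10 nM dose by a direct contrast, which asks where the response at the higher dose differed. Of the 13772 genes tested, 734 (5.33%) passed the edgeR test, 259 higher (1.88%) and 475 lower (3.45%) at 100 nM, and 65 and 56 of them by at least 1 on the log2 scale. In these counts each library mattered, since leaving out 1 of the 4 libraries gave between 254 and 338 genes. Of the strong responses named so far, some did not pass this contrast, among them Prf1 (330 and 321 CPM against 293 and 278), Ifng (56.4 and 49.3 against 52.3 and 47.0) and Il21r (438 and 391 against 439 and 426), with log2 differences of 0.19 ± 0.0932, 0.09 ± 0.0987 and -0.06 ± 0.08 SE. Others passed. Lilrb4 was higher at 100 nM (260 and 261 against 150 and 152 CPM, log2 difference of 0.79) and Il1r1 lower (13.0 and 12.6 against 21.5 and 21.9 CPM, -0.76), and both calls held whichever library was left out. Socs3 (-0.26, adjusted p = 0.0461) and Ccl4 (-0.48, adjusted p = 0.0238) were lower and Il10 was higher (0.43, adjusted p = 0.0183), but Socs3 and Il10 missed the threshold without any 1 of the 4 libraries (adjusted p between 0.0531 and 0.268) and Ccl4 without 3 of them in turn (adjusted p between 0.13 and 0.265). Gzma (log2 difference of 0.47, adjusted p = 0.00564) and Gzmb (0.39, adjusted p = 0.00535) passed, but each missed the threshold without 3 of the 4 libraries in turn (adjusted p between 0.0565 and 0.103).

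Some transcription factor genes changed mainly at the higher dose. Epas1 had a CPM of 18.9 and 19.8 at 10 nM of 21h10, close to its 16.2 and 16.7 without cytokine, and of 105 and 113 at 100 nM (log2 difference of 2.49 ± 0.110 SE, edgeR test, adjusted p = 3.04e-09). Eomes went from 73.2 and 78.2 at 10 nM to 214 and 248 at 100 nM, a log2 difference of 1.61, and Nfil3 from 61.9 and 55.5 to 153 and 136.8, a difference of 1.30. The libraries at 100 nM lay above every other library of the experiment for these 3 genes. The secreted protein genes Il24 (1.57 and 1.71 to 17.4 and 13.2 CPM) and Fam19a3 (9.05 and 10.9 to 66.0 and 53.8 CPM) gave log2 differences of 3.22 and 2.58. Tspan9, a tetraspanin gene, was lower with 10 nM 21h10 than without cytokine (5.42 and 5.58 against 18.7 and 12.9 CPM) and higher at 100 nM, at 35.3 and 33.3. Gm590, a little-known gene, went from 1.496 and 0.838 to 5.30 and 4.46 CPM.

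Another set of genes had risen with 10 nM 21h10 and stood lower at 100 nM. Il18, a cytokine gene of the IL-1 family, had 25.1 and 24.1 CPM at 10 nM and 5.96 and 7.73 at 100 nM (log2 difference of -1.85 ± 0.147 SE, edgeR test, adjusted p = 1.34e-06), which overlapped with its 6.40 and 6.71 CPM without cytokine (0.06 ± 0.154 SE). The noncoding RNA gene Miat fell from 24.2 and 29.6 to 5.43 and 8.70 CPM, still above its 3 and 4 reads in unstimulated cells, though the antisense gene Gm26953 covers 24.3% of its exonic bases. Crhbp went from 2.81 and 2.10 to 0.497 and 0.595 CPM and Il6ra from 37.3 and 37.6 to 13.4 and 12.7. Itgam (log2 difference of -1.11) and Nfkbiz (-1.11) were lower at 100 nM too. Fxyd4 (log2 difference of -3.02) and Mir142 (-1.82, adjusted p = 0.0277) rested on few reads. Fxyd4 did not pass without the second 21h10 library at 100 nM (adjusted p = 0.0561), and Mir142 did not pass with any 1 of the 4 libraries left out (adjusted p between 0.0991 and 0.19). Mir142 overlaps fully with Mir142b on the other strand.

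Some quiescence genes were lower at 100 nM than at 10 nM of 21h10. Of 21 tested, 8 were lower, none higher and 13 did not pass, against 3.45% of all genes lower, with a median log2 difference of -0.25 against 0.0007 over all genes tested. The genes named here were chosen after their values were seen, apart from Btg1. S1pr1, the receptor with which T cells leave lymphoid organs, had 327 and 330 CPM at 10 nM, 169 and 168 at 100 nM and 136.3 and 143.1 without cytokine, and its log2 difference of -0.97 ± 0.0736 SE passed whichever library was left out (edgeR test, adjusted p = 1.16e-06). Klf2 (-0.48), Klf3 (-0.71), Lef1 (-0.41), Bach2 (-0.45), Ccr7 (-0.49), Btg1 (-0.47) and Btg2 (-0.45) were lower as well, but each missed the threshold with at least 1 library left out. Adhesion genes gave 9 of 22 lower and 1 higher, with Itgae at 15 and 14.2 CPM at 10 nM and 5.90 and 4.87 at 100 nM. Receptors shared with natural killer cells gave 5 of 21 lower and none higher.

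A minority of genes in a pair of metabolic lists were higher at 100 nM. Of 32 lipid synthesis genes, 9 were higher, 1 lower and 22 did not pass, and of 39 genes of the ATF4 response and the tRNA synthetases, 7 were higher, none lower and 32 did not pass, against 1.88% of all genes higher. Acat2 went from 54.3 and 51.3 to 92.3 and 90.3 CPM. Among receptors, Il2ra (log2 difference of 0.56), Il4ra (0.68), Lilrb4 (0.79) and Tnfrsf4, the gene for OX40 (1.35), were higher at 100 nM, and Il18r1 (-0.48) and Cxcr3 (-0.79) were lower. Tnfrsf4 was chosen after its values were seen. It stood at 26.2 and 24.7 CPM without cytokine, at 12.6 and 14.4 with 10 nM and at 36.5 and 32.6 with 100 nM.

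At the same dose of 100 nM, 21h10 was compared with mIL-21, the native cytokine. Of the 13772 genes tested, 1175 (8.53%) passed the edgeR test, 553 higher (4.02%) and 622 lower (4.52%) with 21h10, of which 188 and 55 by at least 1 on the log2 scale. With mapped reads as library sizes 403 were higher and 934 lower. Leaving out 1 library gave between 372 and 637 genes. Socs3 did not pass (262 and 261 CPM with 21h10, 293 and 291 with mIL-21, log2 difference of -0.16 ± 0.0732 SE, edgeR test, adjusted p = 0.198). Nor did Il21r (0.07 ± 0.08 SE) or Ifng (0.02 ± 0.0984 SE). Of the 23 tested genes of receptors and JAK-STAT signalling, 3 were higher and 5 lower, against 4.02% and 4.52% of all genes. Among them Il2ra (0.64) and Il4ra (0.72) were higher with 21h10, and Il6ra (-1.57) and Il18r1 (-0.53) were lower.

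This comparison and that of the doses share the libraries with 100 nM 21h10, and the values are given side by side without a test of their likeness. Epas1 had 12.8 and 14.1 CPM with mIL-21 and 105 and 113 with 21h10 (log2 difference of 3.02 ± 0.113 SE, edgeR test, adjusted p = 2.47e-10), Eomes 44.3 and 48.0 against 214 and 248 (2.32), and Nfil3 50.3 and 61.5 against 153 and 136.8 (1.37). In unstimulated cells Eomes had been at 52.7 and 60.4, above its level with mIL-21 at 100 nM and below that with 21h10. Il24 (3.69), Fam19a3 (3.35), Tspan9 (2.72) and Gm590 (2.05) were higher with 21h10 as well. Gzma was higher than with mIL-21, at 4867 and 4768 against 3326 and 2772 CPM (0.66), and so were Gzmb (0.37), Prf1 (330 and 321 against 230 and 265 CPM, 0.40), Il10 (0.68) and Moxd1 (0.73). The calls of Gzmb and Prf1 were each lost without 3 of the 4 libraries in turn (adjusted p between 0.0564 and 0.24).

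Falls against mIL-21 were those of Fxyd4 (-2.91), Crhbp (-2.67), Itgae (18.0 and 19.9 CPM with mIL-21 against 5.90 and 4.87, -1.81), Il18 (25.8 and 21.8 against 5.96 and 7.73, -1.80) and Miat (-1.72). S1pr1 was at 329 and 341 CPM with mIL-21 and at 169 and 168 with 21h10, a log2 difference of -0.99 (edgeR test, adjusted p = 5.22e-07). Of the 21 quiescence genes 8 were lower and 1 higher, and of the 25 killing genes 5 were higher and none lower. Over all genes tested, 4.52% were lower and 4.02% higher. Of the lower quiescence genes, Klf2 and Bach2 missed the threshold without any 1 of the 4 libraries (adjusted p between 0.0502 and 0.129), Lef1 without 3 of them in turn, and Ccr7 and Btg2 without at least 1. H2-DMb2, a class II accessory gene whose relative H2-DMb1 matches 51.9% of its transcript, was higher than with mIL-21 (1.09 and 1.56 against 0.0583 and 0.194 CPM, log2 difference of 3.39, adjusted p = 0.00321), near its 1.42 and 1.58 CPM without cytokine. This difference missed the threshold without the first mIL-21 library (2.74, adjusted p = 0.0706), and that of Fxyd4 without the second 21h10 library (adjusted p = 0.057).

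**Figure D4:**
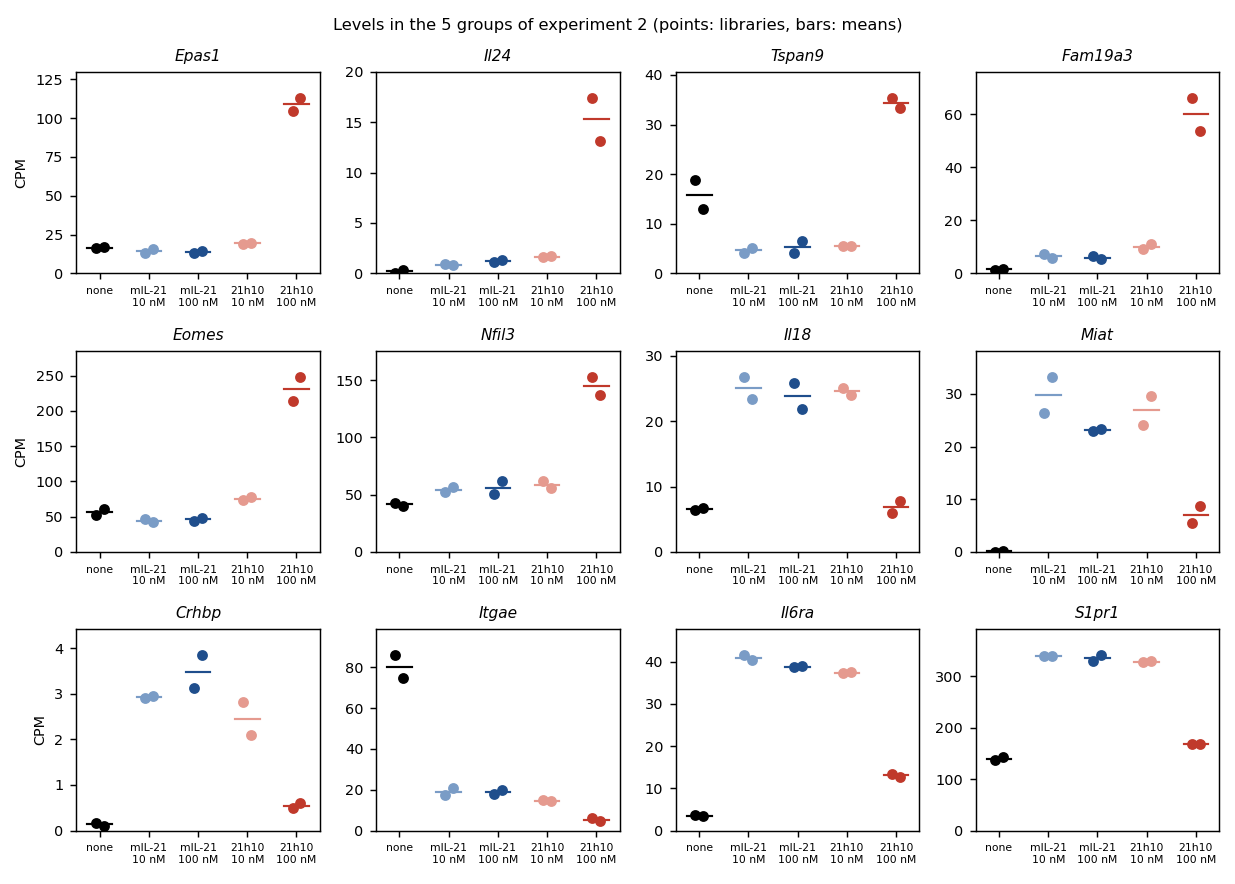
CPM of 12 genes in the 5 groups of experiment 2, a point per library and a bar at the mean of its group, on a linear axis from 0 for each gene. Epas1, Il24, Tspan9, Fam19a3, Eomes and Nfil3 stand highest with 100 nM 21h10, while Il18, Miat, Crhbp, Il6ra and S1pr1 rose with the other treatments and stand nearer to their unstimulated level at 100 nM 21h10, and Itgae is lowest there.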

How the data were processed

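RNA of CD8+ T cells was isolated with TRIzol, made into libraries with the KAPA mRNA HyperPrep kit and sequenced on an Illumina NovaSeq. The submitters' processing notes name Bowtie2 2.2.6, TopHat2 2.0.11, SAMtools 0.1.8, bedtools 2.25.0, edgeR and the build mm10 (GRCm38). The authors mapped the reads, and the deposited counts are raw whole numbers per RefSeq transcript, 1 table per library. The deposited RPKM values are the authors' counts divided by transcript length and by mapped reads, and the latter were recovered from the 3 columns together. The counting tool, the use of strand and the annotation version are not given in the sources used here. The wider overlaps and near copies of named genes are therefore given as a limit, and smaller ones are not all given.

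Of 31682 transcripts, the longest of each of the 23992 symbols was used. Genes were kept by filterByExpr (a least count of 10 and a least total of 15), TMM-scaled and fitted with edgeR 4.0.16 (glmQLFit, then glmQLFTest, R 4.3.3) over the 10 libraries of experiment 2, with group as the factor. Genes with a p under 0.05 after Benjamini-Hochberg adjustment were called. Each SE is the size of the log2 fold change divided by the square root of the F statistic of the test. It is not a direct estimate and can be too small where a group has few reads. With 2 libraries a group, the smallest two-sided p that an exact permutation test allows is 0.333. The biological coefficient of variation was 8.80%. Counts were simulated for the 13772 genes of 21h10 100 nM against unstimulated, with 200 genes changed, equally in both directions. Of genes changed by a log2 fold of 1, 76% were recovered, and of those changed by 0.5, 40%, and 6.45% of calls were false. Far more genes passed in the data, and their split depended on the scaling, so these shares need not hold there. The spread between duplicates limits the precision. A group with at most 3 reads in each library was counted as at the detection floor, a bound for counting error alone.

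The members and gene lists were chosen with earlier results of these data known. The genes named were the 10 largest rises and falls against unstimulated cells and the 5 against each other group, among genes past the threshold without overlap and with a mean RPKM from 1 upward in the group where they were higher, the 3 largest rises and falls of each list, members of the lists of receptors and JAK-STAT signalling, feedback, killing and effector factors, and the 5 genes of highest RPKM. Cd8a and other genes said to be chosen after their values were seen, or named as markers, fall outside this rule, Tmsb10 of the last group is not described, and a few genes that the rule would name are not reported here. Gene positions are those of GRCm38. Exon overlaps and near copies (at least 97% identity) were computed with bedtools 2.31.1 and BLAST 2.17.0. Gucy1a3, Lilrb4, Fam19a3 and Gm590 are older symbols of Gucy1a1, Lilrb4a, Tafa3 and Fam240a. Alternatives were median-of-ratios (RLE) scaling, DESeq2 1.42.0, no filter, a fit restricted to the compared groups, a block for the replicate number, leaving out single libraries, a lower limit of 1 on the log2 fold change, mapped reads as library sizes, the most-read transcript, and limma 3.58.1 on log2(RPKM + 1) for genes reaching an RPKM of 1 in 2 or more libraries. Figures were drawn with matplotlib 3.10.9 under Python 3.11.15.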

Additional observations from a re-analysis of the deposited data

Results flagged for a closer look

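The response to 21h10 at 100 nM differed from that at the lower dose and from that to mIL-21, each by a direct test between treated groups in the same edgeR fit, in which the unstimulated libraries cancel out. Between 100 nM and 10 nM of 21h10, 734 genes passed the threshold, and between 21h10 and mIL-21 at 100 nM, 1175 genes did. These comparisons share the 21h10 libraries at 100 nM.

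The higher genes had log2 differences against 10 nM of 21h10 and against 100 nM of mIL-21 of 2.49 and 3.02 for Epas1, of 3.22 and 3.69 for Il24, of 2.64 and 2.72 for Tspan9 and of 2.58 and 3.35 for Fam19a3. Gm590 differed by 2.07 from the lower dose. The lower genes had log2 differences in the same order of -3.02 and -2.91 for Fxyd4, of -2.16 and -2.67 for Crhbp, of -1.94 and -1.72 for Miat and of -1.85 and -1.80 for Il18. Itgae differed by -1.81 from mIL-21 and Mir142 by -1.82 from the lower dose. H2-DMb2 was 3.39 higher than with mIL-21. Fxyd4, Mir142 and H2-DMb2 each lost their call when single libraries were left out, as given above with their values. In each of these genes both libraries with 100 nM 21h10 lay on the same side of both libraries of the group compared. This was a condition of the rule that chose them and adds no support.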

How the results depend on the processing

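Against unstimulated cells, 6992 genes passed the threshold, and the alternatives gave 6962 (RLE scaling), 6799 (DESeq2), 7128 (no filter), 5984 (compared groups alone), 8140 (mapped reads), 7024 (most-read transcript), 6857 (limma, with 1312 higher and 5545 lower) and 2230 with a log2 fold change of at least 1, and between 5181 and 7099 with 1 library left out. At the unadjusted threshold 7802 genes passed. Against 10 nM of 21h10, 734 genes became 1150 without the filter, 1553 with the compared groups alone, 407 with limma and 121 with the fold limit, and between 254 and 338 with 1 library left out. Against mIL-21 at 100 nM, 1175 genes became 2026 with the compared groups alone, 1721 without the filter, 820 with limma (252 higher and 568 lower, against 553 and 622) and 243 with the fold limit, and between 372 and 637 with 1 library left out. The other alternatives of these 2 comparisons stayed within 1.5 times their count. The causes of these differences were not tested, beyond the smaller number of samples or the added limit that some of the alternatives impose.

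The duplicate numbers did not pair the libraries, since the duplicates' differences correlated by between -0.167 and 0.228 over pairs of groups. With the replicate block the counts were 7167, 823 and 1345. Of the genes named, those followed through the alternatives were 186 against unstimulated cells, 38 against 10 nM of 21h10 and 33 against mIL-21. Of these, 175, 24 and 24 kept their direction and their side of the threshold under each alternative that gave them a value. The fold limit is left aside here, since 47, 21 and 18 lost their call under it. Reversals were those of Stat3 with mapped reads (-0.0011) and of Jak1 with mapped reads (-0.0954) and limma (-0.0945). Depth limits the genes near the floor of 3 reads, where folds are bounds.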
